A study of Camelus dromedarius with 4 samples.

Results

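The 34 genes described here make cholesterol and fatty acids, or sense, control and move sterols, and were chosen by gene symbol as a fixed list from the 18152 rows of a table of season means. Of these genes, 31 had a mean in both seasons and 30 reached a mean of 10 normalized counts or more in at least 1 season. SC5D, NR1H3 and ELOVL6 were listed with no mean in either season. The tissue was the supraoptic nucleus (SON) of the dromedary camel (Camelus dromedarius), a hypothalamic nucleus whose magnocellular neurons release vasopressin and oxytocin from the posterior pituitary. The 4 libraries were 2 from winter and 2 from summer, all from healthy, age-matched adult male Tergui camels with access to water, so hydration, breed, sex and age class were shared and only the season was compared. The winter animals were killed at El Oued and the summer animals at Ouargla, so season and place cannot be told apart, and season cannot be told apart from anything else that differed between the collections.

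The brain makes nearly all of its own cholesterol because plasma lipoproteins do not cross the blood-brain barrier, and glia, above all oligodendrocytes during myelination, account for much of that synthesis. Acetyl-CoA is built into mevalonate, then isoprenoids, squalene and lanosterol, and a series of demethylation, reduction and isomerization steps turns lanosterol into cholesterol. When membrane sterol is low, SCAP carries the SREBP transcription factors out of the endoplasmic reticulum, and their cleaved forms switch on the sterol and fatty acid synthesis genes, while the INSIG proteins hold the complex back when sterol is plentiful.

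Between 4379162 and 6902037 reads fell on gene models in each library, out of 64989 models, but those models carry no gene names, so named genes were followed through the season means. A season mean is the average over 2 libraries of reads divided by a library's size factor, and whole reads for each library could be worked back from it. The larger-factor library of a season is called A and the other B, with size factors of 0.922 and 0.877 in summer and 1.33 and 0.946 in winter, and the letters are not tied to replicate numbers. For 11 genes a single set of whole reads fitted the means. For 15 genes between 2 and 8 sets did, and for SREBF1, SREBF2, ACACA, FASN and SCD so many sets did that only the season means are given, with no error. Values per library are normalized reads (reads divided by the size factor), and levels are compared between seasons and not between genes, since transcript length was not accounted for. In bulk tissue, fewer cells of a type and less RNA per cell cannot be told apart. As a check on the dissection, 5 of 6 magnocellular neuron markers had means, 2 higher and 3 lower in winter. OXT, the oxytocin precursor, had means of 592 in summer and 621 in winter. PDYN, the dynorphin precursor, had means of 127 in summer and 35.9 in winter. PDYN was more than 2-fold apart in edgeR with an unadjusted p of 0.0337 and an adjusted p of 0.982. Its libraries A and B held 128 and 127 normalized reads in summer and 63.4 and 8.46 in winter. The 4 markers with a single solution summed to 248 and 288 in summer libraries A and B. In winter libraries A and B they summed to 251 and 87.8, so winter library B was low. POU3F2 was even there, with 44.5 and 44.4 in winter libraries A and B. Anterior pituitary transcripts were also present, with GH1, the growth hormone gene, at 464 in summer and 1132 in winter and the other 3 markers with a mean of at least 10 lower in winter. AVP, the other defining gene of these neurons, had no mean under that symbol.

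Across the list, the cholesterol enzymes leaned toward lower winter means and the fatty acid enzymes toward higher winter means, but no gene with values for each library passed a test of the seasons. Of the 17 cholesterol synthesis enzymes with means, 12 were lower and 5 higher in winter, with a median log2 ratio of winter over summer of -0.22. Of the 7 fatty acid enzymes with means, 6 were higher and 1 lower in winter, with a median log2 ratio of 0.32. Over the 13786 symbols that reached a mean of 10 in a season, 46.2% were higher in winter and the median log2 ratio was -0.04, and over the 30 listed genes 14 were higher in winter, or 46.7%, with a median of -0.0019. MVK and NSDHL had nearly equal means in both seasons. For each other scaling, its median shift over all symbols tested was added to every log2 ratio of season means. After this shift MVK and NSDHL changed side, which left 10 of the 17 cholesterol enzymes lower and 7 higher. With the shift of library totals alone ACACA also changed side, which put all 7 fatty acid enzymes higher in winter. The same shift was used for every gene, so these sides are not those of a full rescaling of each gene.

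Season means more than 1.5-fold apart were seen for 5 of the 30 genes, or 16.7%, beside 22.3% of all symbols. SREBF1, PMVK and FASN were the 3 higher in winter, and CYP51A1 and IDI1 the 2 lower in winter, where 10.1% of all symbols were higher and 12.2% lower by that much. No gene of the list was more than 2-fold apart, beside 7.27% of all symbols. At a lower limit, a log2 ratio beyond 0.32 in either direction, 11 of the 30 genes passed, or 36.7%, beside 45.8% of all symbols. The share of listed genes past each of these limits was not above that of all symbols.

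**Figure D1:**
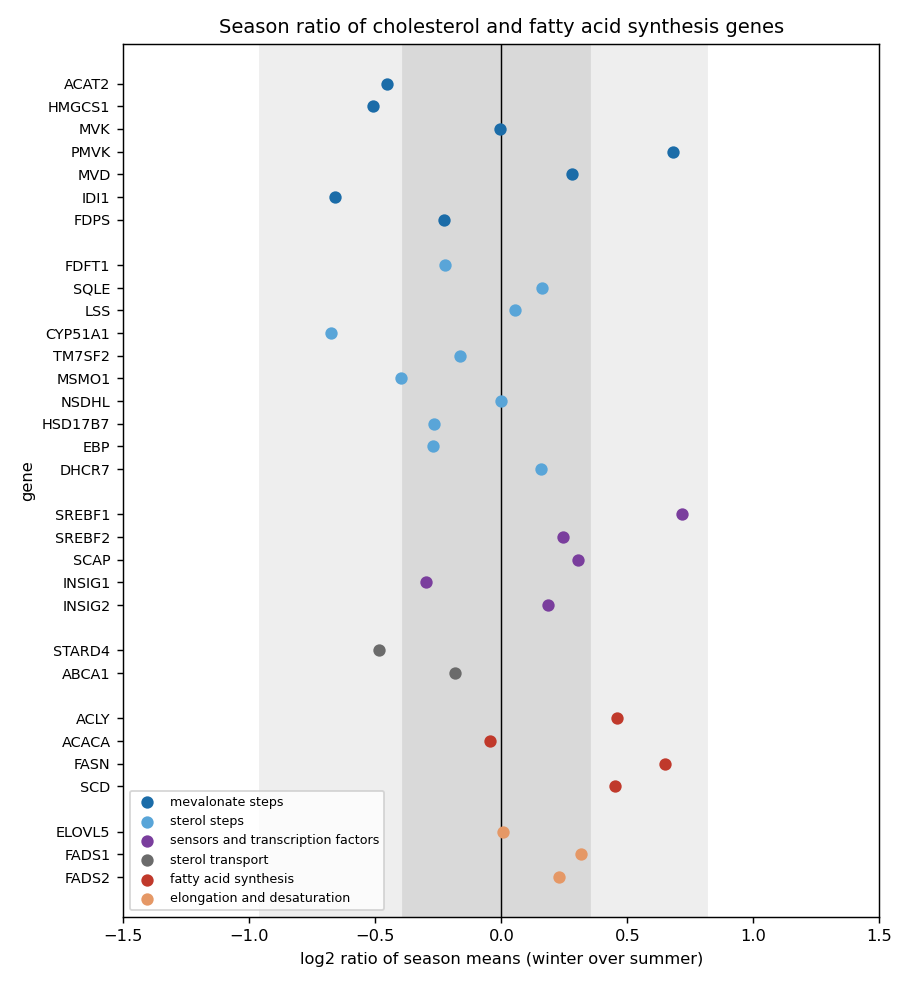
Log2 ratio of the winter mean over the summer mean (x axis) for each of the 31 genes with means (y axis), coloured by role. The dark band holds the middle part of all symbols with a mean of 10 or more, from the 20th percentile (-0.39) to the 80th (0.35), and the light band runs from the 5th (-0.96) to the 95th (0.81). No listed gene leaves the light band, with SREBF1 (0.72) and CYP51A1 (-0.68) at the ends.

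**Figure D2:**
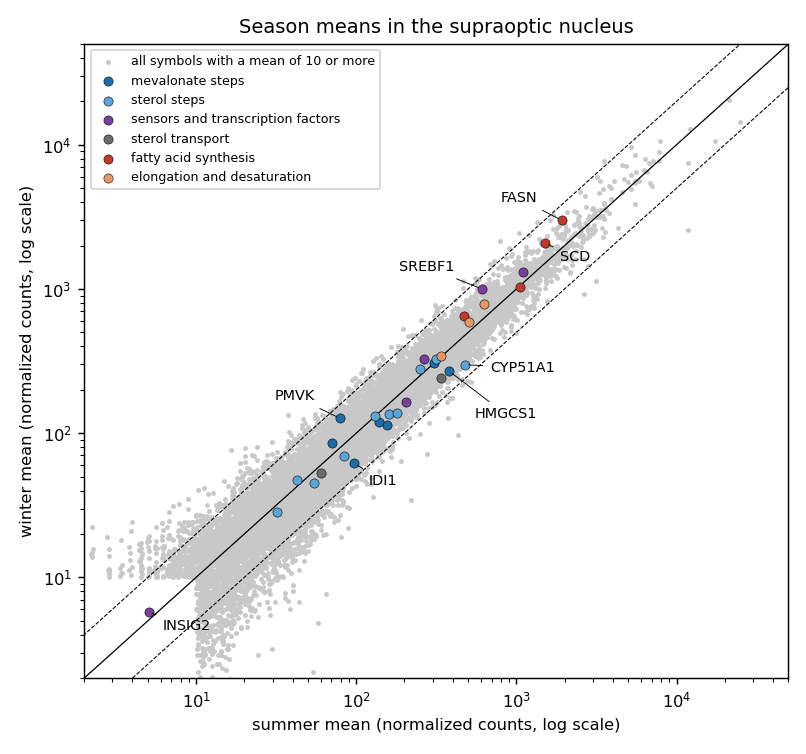
Summer mean (x axis) against winter mean (y axis) in normalized counts, both on log scales, for all symbols with a mean of 10 or more in a season (grey) and the listed genes (coloured by role). The solid line marks equal means and the dashed lines a 2-fold difference. All 31 listed genes with means lie between the dashed lines, and INSIG2 is the one with means under 10.

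Among the mevalonate steps, which turn acetyl-CoA into the isoprenoid farnesyl diphosphate, 5 of 7 genes had lower winter means and the median log2 ratio was -0.23. ACAT2, the cytosolic thiolase that joins acetyl-CoA units, had 154 and 156 normalized reads in summer libraries A and B and 121 and 106 in winter libraries A and B. The winter libraries were both below the summer pair, and the summer libraries were nearly equal. In edgeR's quasi-likelihood test the log2 fold change was -0.45 ± 0.32 (SE, 2 libraries a season; unadjusted p = 0.201, adjusted p = 0.982), and it ran from -0.55 to -0.36 when each library was left out in turn.

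PMVK, phosphomevalonate kinase, went the other way, with 74.8 and 83.2 normalized reads in summer and 117 and 136 in winter. The winter libraries were both above the summer pair, with a wider gap between seasons than within either. The log2 fold change was 0.68 ± 0.34 (SE; edgeR unadjusted p = 0.0812, adjusted p = 0.982), the lowest p among the 10 genes tested, and it stayed between 0.57 and 0.79 without any single library.

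IDI1, the isomerase that makes the reactive isoprenoid unit, had 136 and 59.3 normalized reads in summer and 85.3 and 38.1 in winter. The libraries of each season were more than 2-fold apart and the seasons overlapped, since summer library B lay below winter library A. Its log2 fold change was -0.64 ± 0.54 (SE; edgeR unadjusted p = 0.271, adjusted p = 0.982). It ran from -1.35 without winter library A to 0.07 without summer library A, and without summer library B it was -1.12, with an unadjusted p of 0.0113 and an adjusted p of 0.144 in edgeR. IDI1 thus passed no threshold with all 4 libraries, and the size of its difference depended on which library was left out.

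MVD, which decarboxylates mevalonate diphosphate, had 59.6 and 82.1 normalized reads in summer and 109 and 63.5 in winter, so its seasons overlapped. FDPS, farnesyl diphosphate synthase, had 152 and 127 in summer and 132 and 106 in winter, also overlapping. The log2 fold changes were 0.29 ± 0.42 for MVD and -0.22 ± 0.34 for FDPS (SE), neither past any threshold.

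HMGCS1, the synthase that makes HMG-CoA had a summer mean of 382 and a winter mean of 268, 1.42-fold lower, and its library values had 2 solutions. In both, the summer libraries held 346 and 417 normalized reads. In one, the winter libraries held 271 and 265, below both summer libraries, and in the other 410 and 126, overlapping them. MVK, mevalonate kinase, had means of 305 in summer and 304 in winter, the nearest to equality among the mevalonate steps.

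Of the 11 sterol-step genes, SC5D had no mean, 7 had lower and 3 higher winter means, and the median log2 ratio was -0.19. CYP51A1, the demethylase that acts first on lanosterol, had the largest difference of these, from a summer mean of 477 to a winter mean of 298, 1.60-fold lower. Its summer libraries held 471 and 483 normalized reads, and its winter libraries held either 183 and 414 or 323 and 274. Under both solutions the winter libraries lay below the summer libraries, and the log2 fold change was -0.68 with an SE of 0.51 to 0.59 and an unadjusted edgeR p of 0.229 to 0.289.

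MSMO1, the methylsterol oxidase of the later demethylation steps, had means of 180 in summer and 137 in winter. Its summer libraries held 188 and 173 normalized reads and its winter libraries either 165 and 109, below both, or 25.7 and 249, overlapping. NSDHL, a sterol dehydrogenase of the same demethylation complex, had a mean of 131 in both seasons. HSD17B7, the ketoreductase of that complex, had 43.4 and 65.0 normalized reads in summer and 44.5 and 45.5 in winter. The winter libraries of HSD17B7 were nearly equal and lay inside the summer range, or below it under TMM scaling, with a log2 fold change of -0.27 ± 0.45 (SE).

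FDFT1, squalene synthase, the first enzyme committed to sterols, had means of 159 in summer and 136 in winter. SQLE, the epoxidase that follows and a rate-limiting step, had means of 249 in summer and 278 in winter, and LSS, lanosterol synthase, had means of 315 in summer and 327 in winter. These 3 genes were within 1.17-fold of equality, and none had a solution in which the seasons separated.

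The late sterol enzymes were among the least even between libraries of the same season. TM7SF2, a sterol reductase, had 46.6 and 17.1 normalized reads in summer and 34.7 and 22.2 in winter. EBP, the sterol isomerase, had 61.8 and 105 in summer and 93.6 and 44.4 in winter. DHCR7, the reductase that yields cholesterol, had 36.9 and 47.9 in summer and 70.2 and 24.3 in winter. In all 3 genes the seasons overlapped, and the log2 fold changes were -0.15 ± 0.66 for TM7SF2, -0.25 ± 0.48 for EBP and 0.19 ± 0.59 for DHCR7 (SE). Each of these changed sign when a single library was left out.

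**Figure D3:**
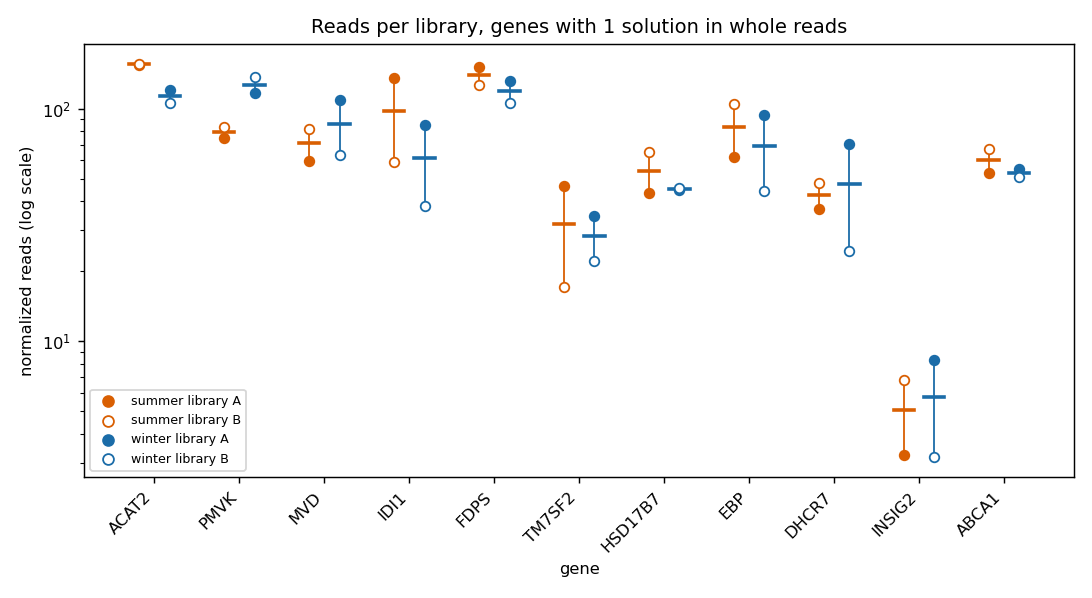
Normalized reads (y axis, log scale) in each library for the 11 genes with a single solution (x axis). Filled points are library A, open points library B, thin lines join the libraries of a season and thick bars are season means. ACAT2 and PMVK are the 2 genes with a mean of 10 or more whose summer (orange) and winter (blue) libraries do not overlap in this scaling.

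The sterol sensors and transcription factors showed their largest difference at SREBF1, which encodes SREBP-1, the factor best known for driving fatty acid synthesis genes. Its mean was 609 in summer and 1000 in winter, 1.64-fold higher and a log2 ratio of 0.72, and 15.6% of all symbols differed by more. SREBF2, which encodes the factor that favours cholesterol synthesis genes, had means of 1104 in summer and 1309 in winter, 1.19-fold higher. No values for each library could be had for either gene, so neither difference has a replicate check.

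SCAP, the escort of both factors, had means of 266 in summer and 329 in winter. Its summer libraries held 279 and 254 normalized reads, and of its 3 winter solutions one, 294 and 364, lay above both and the others overlapped. INSIG1, the retention protein that is itself a target of SREBP, had means of 203 in summer and 165 in winter, and it too was separated in 1 of 3 solutions. INSIG2, a related retention protein, was near the detection limit. Its summer libraries held 3 and 6 reads and its winter libraries 11 and 3, where 3 reads is the upper limit that a count of 0 allows, so no difference was detectable at this depth. This limit of 3 reads covers counting error only.

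Both sterol transport genes had lower winter means. STARD4, which carries cholesterol between membranes, had means of 340 in summer and 243 in winter, 1.40-fold lower. Its summer libraries held 425 and 255 normalized reads, and its winter libraries either 235 and 251, just below both, or 95.8 and 390, overlapping. ABCA1, the efflux pump that loads cholesterol onto apolipoproteins, had 53.1 and 67.2 normalized reads in summer and 55.1 and 50.8 in winter. The seasons of ABCA1 overlapped by 1 winter library that lay just above the lower summer library, while under each of the 4 other scalings both winter libraries lay below, and the log2 fold change was -0.18 ± 0.40 (SE).

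Of the 4 fatty acid synthesis genes, 3 had higher winter means, with log2 ratios of 0.45 to 0.65, and the median was 0.46. FASN, the synthase that builds palmitate, had means of 1914 in summer and 3003 in winter, 1.57-fold higher. SCD, the desaturase that makes oleate, had means of 1516 in summer and 2073 in winter, 1.37-fold higher. ACACA, the carboxylase that makes malonyl-CoA, stood apart with means of 1057 in summer and 1025 in winter. These values are the authors' means, with no error.

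ACLY, which supplies cytosolic acetyl-CoA to both pathways, had means of 472 in summer and 649 in winter, 1.38-fold higher. Its 4 solutions differed widely, with summer libraries at 365 and 578 or at 923 and 20.5 normalized reads and winter libraries at 825 and 473 or at 964 and 333. The seasons overlapped under each of them, and the log2 fold change of 0.46 had an SE of 0.70 to 1.37.

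Of the elongases and desaturases that lengthen and unsaturate these products, ELOVL6 had no mean. ELOVL5, an elongase of polyunsaturated fatty acids, had means of 340 in summer and 342 in winter. FADS1 and FADS2, the desaturases of that route, had means of 627 and 504 in summer and 781 and 590 in winter. The log2 ratios were 0.32 for FADS1 and 0.23 for FADS2, and neither gene was separated in any of its solutions, 8 for FADS1 and 6 for FADS2.

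**Figure D4:**
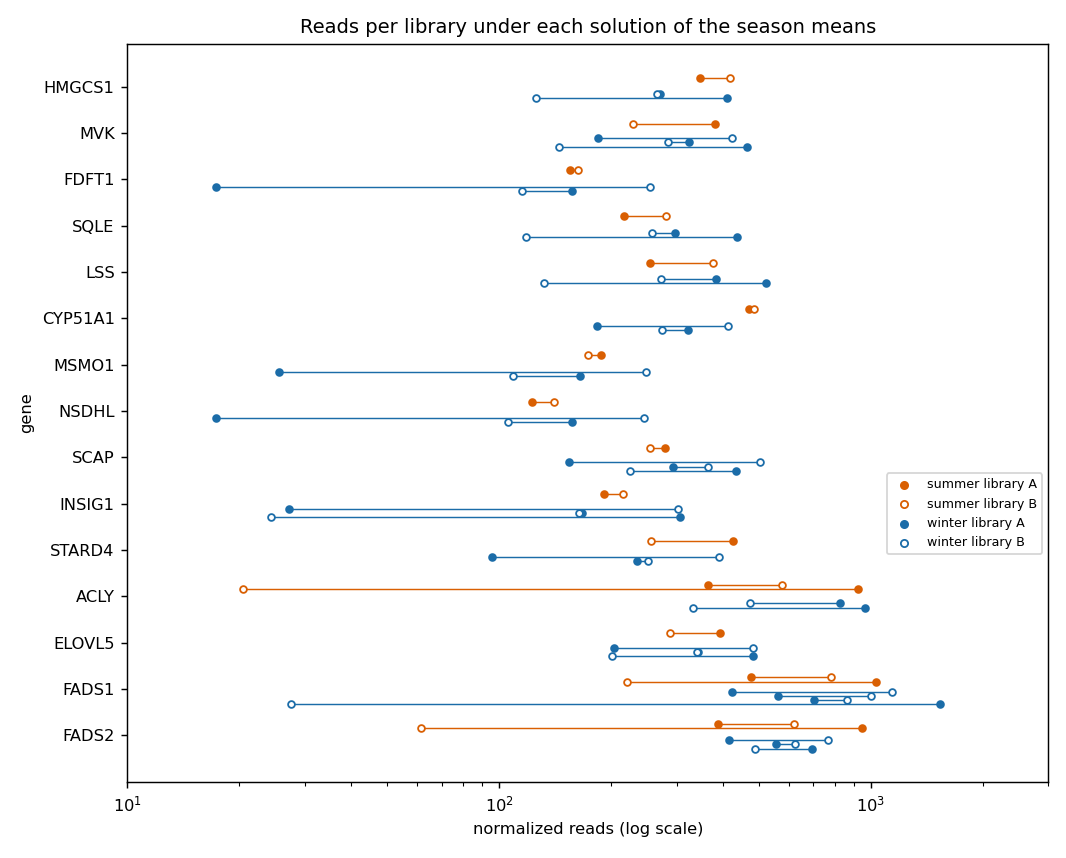
Normalized reads (x axis, log scale) that the libraries could hold for the 15 genes with 2 to 8 solutions (y axis), with 1 line for each distinct pair of summer (orange) or winter (blue) values. Filled points are library A and open points library B. CYP51A1 is the one gene whose winter pairs all lie below its summer pair.

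With edgeR's quasi-likelihood test over 7650 symbols that had a single solution and reached a mean of 10, 0 of the 10 listed genes that entered were more than 2-fold apart with an unadjusted p under 0.05, beside 1.67% of all symbols tested. These 10 were all mevalonate, sterol-step or sterol transport genes, and no fatty acid enzyme, sensor or transcription factor entered. None of the 10 had an adjusted p under 0.05, nor did any other symbol (0%). An unadjusted p under 0.05 was reached by 0 of the 10, beside 1.99% of all. The 2-fold rule and the adjusted threshold also called 0 of the 10 in edgeR's exact test, DESeq2, limma-voom and edgeR with its legacy dispersion fit. Adjusted p-values of the 10 genes lay between 0.982 and 0.988. Their median log2 fold change was -0.20 beside -0.11 for all symbols tested, and this median was 0.02 without summer library B and 0.02 without winter library B. Within a season the libraries varied with a biological coefficient of variation of 0.459.

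The libraries of the seasons did not overlap for 2 of the 10 genes, ACAT2 and PMVK, a share of 20% beside 30.5% of all symbols tested (13.3% with winter above, as PMVK, and 17.2% with winter below, as ACAT2). The count depended on the scaling. It was 4 of 10 under TMM, which added HSD17B7 and ABCA1, or 40% beside 29.4% of all symbols. It was 3 of 10, with ABCA1 added, under RLE (29.4% of all symbols), upper quartile (29.8%) and library totals (29.3%). Counting genes with up to 10 solutions and asking for separation under each solution added CYP51A1, for 3 of 25, or 12%, beside 18.5% of all symbols under the same rule. With 2 libraries a season an exact two-sided permutation test cannot go below p = 0.333. Among the 11 genes with a single solution, the libraries differed by 1.01-fold to 2.73-fold within summer and by 1.02-fold to 2.89-fold within winter. For 2 genes, ACAT2 and PMVK, the ratio between the season means exceeded that gene's own ratio between libraries in each season. The share of all symbols for which this holds was not computed, so this count has no background beside it. Winter library A lay above winter library B in 9 of the 11 genes, while summer library A lay above summer library B in 3.

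The other genes of these pathways were followed through lists of 38 cholesterol genes (uptake, storage, efflux and oxysterols) and 41 fatty acid genes (activation, elongation, storage and nuclear receptors). Of 31 cholesterol genes with a mean of at least 10, 17 were higher and 14 lower in winter, with a median log2 ratio of 0.08. Of 34 fatty acid genes, 21 were higher and 13 lower, also with a median of 0.08. None of the 9 cholesterol and 11 fatty acid genes tested passed the 2-fold rule or an adjusted p of 0.05 in edgeR.

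By size of the fitted difference, PPARG, a nuclear receptor of fat storage, was among the leading genes lower in winter in these lists. Its summer libraries held 0 and 33 whole reads and its winter libraries 16 and 14, so its high summer mean came from summer library B alone. The leading pair higher in winter was OXSM, the condensing enzyme of mitochondrial fatty acid synthesis, with 7 and 9 whole reads in summer, against 22 and 9 in winter, and CYP46A1, which makes the oxysterol by which neurons shed cholesterol, with 42 and 50 in summer and 129 and 48 in winter. There the high winter mean came from winter library A.

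Season means of brain cell type markers differed too, although no oligodendrocyte, astrocyte or neuron marker that could be tested (3, 4 and 1 genes) passed the 2-fold rule or an adjusted p of 0.05 in edgeR. Of 20 oligodendrocyte markers, 17 had higher winter means, and their summed means were 53588 in summer and 61060 in winter, with MBP of myelin at 4571 in summer and 7277 in winter. Of 10 astrocyte markers, 6 had lower and 4 higher winter means, with a median log2 ratio of -0.09. Their summed means were 46634 in summer and 31225 in winter, a difference carried mostly by GFAP, at 25074 in summer and 14423 in winter, and S100B, at 11788 and 7490. The 8 neuron markers with means, of 10 listed, were all higher in winter, with summed means of 3595 in summer and 5733 in winter. The 4 adipocyte markers with means, of 6 listed, summed to 2.17 and 47.9 normalized reads in summer libraries A and B. They summed to 12.1 and 11.6 in winter libraries A and B, so summer library B alone was high. Only 1 of the 4, PLIN1, reached a mean of 10. Summer library A held 0 or 1 whole reads of each, so its lower sum than in winter rests on few reads. The part of these differences in the values of the lipid synthesis genes was not tested.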

How the data were processed

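Stranded total RNA of the SON, depleted of ribosomal RNA, was sequenced in 2 winter and 2 summer libraries. The authors aligned reads with TopHat to their own assembly and deposited HTSeq read counts for each gene model. The tally rows that name no gene held 72.2% to 79.3% of alignments and were left out. The authors also deposited, per symbol, a signal, which averages the size-factor-scaled counts (DESeq) of a season's libraries. Their fold change and p-value columns were not used, and 0 columns of other samples were found. Of 18152 table rows, 34 named no gene. Per the study's description, tissue of 2 camels was sequenced in each season.

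Whole reads per library were solved from the means, which are printed to 6 significant digits, after finding the value of 1 read in each library. This gave 1 solution for 9891 of 16027 symbols with means, and no symbol had none. No symbol above a winter mean of 252 or a summer mean of 334 had a single solution. Some were lost at lower means too, such as NSDHL at a winter mean of 131, so tested symbols favour low winter means. Symbols that reached a mean of 10 in either season were fitted in edgeR 4.0.16 (R 4.3.3; glmQLFit with legacy FALSE, glmQLFTest, Benjamini-Hochberg over 7650 symbols), after a check on simulated data. Alternatives were DESeq2 1.42.0, limma-voom 3.58.1, the exact test, other scalings, filters and folds, and leaving out each library. Genes with 2 to 10 solutions were fitted under each, which was chosen after seeing the data. These genes are more abundant than those tested, so their dispersion was extrapolated.

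Genes and lists were chosen with earlier results of these data known. Each listed gene is named. From the pathway lists, the 2 with the largest fitted difference each way among those with 1 solution and a mean of at least 10 are named, except that 1 result is not reported here.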

Additional observations from a re-analysis of the deposited data

How the results depend on the processing

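No paired analysis was possible because the seasons hold different animals, killed at El Oued in winter and at Ouargla in summer. The season means also carry no replicate numbers. The count of genes past the 2-fold rule ran from 0 to 1 when each library was left out, the 1 being IDI1 without summer library B, and was 0 under the other scalings, filters, folds and tests. A season left with 1 library was assumed to vary like the other. The median log2 fold change of the 10 tested genes, none a fatty acid enzyme, ran from -0.46 to 0.02. It turned positive without summer library B (0.024) and without winter library B (0.020). Genes more than 1.5-fold apart numbered 5, against 11 at the lower limit of 0.32 in log2 (36.7%, beside 45.8% of all symbols) and 0 at 2-fold. Genes whose seasons did not overlap numbered 2, against 4 under TMM and 3 under RLE, upper quartile and library totals, alternatives chosen after seeing the data. The log2 fold changes of single genes kept their direction in 176 settings and changed sign in 10, of which 9 left out 1 library and 1 was a solution of NSDHL (0.0033, against -0.00013 from its nearly equal means). These settings do not include the median shifts between scalings that were added to every season ratio. After those shifts MVK and NSDHL changed side, and with that of library totals ACACA did too. Across the 4 fits that each leave out 1 library, the log2 fold change ran from -0.16 to 0.62 for MVD, -1.35 to 0.069 for IDI1, -0.70 to 0.74 for TM7SF2, -0.53 to 0.052 for HSD17B7, -0.90 to 0.17 for EBP and -0.80 to 0.73 for DHCR7. The cause was not tested. Other scalings moved the median of all symbols by 0.02 to 0.10 on the log2 scale.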

Other observations

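Beyond the listed enzymes, a few genes of the wider lipid lists had season means more than 1.5-fold apart, named here after their values were seen and with no error, since their whole reads had no single solution. ABCG1, which exports cholesterol to lipoproteins, had means of 76.2 in summer and 154 in winter. RXRA, the partner receptor of the oxysterol receptors, had means of 114 in summer and 209 in winter, and GRAMD1B, which moves cholesterol from the plasma membrane to the endoplasmic reticulum, had means of 640 in summer and 996 in winter. CYP27A1, the mitochondrial sterol hydroxylase, was lower in winter, with means of 607 in summer and 380 in winter. Of the 31 cholesterol genes with a mean of at least 10, 3 were higher in winter by that much and 2 lower. Over all symbols, 10.1% were higher and 12.2% lower by that much, so neither share of the cholesterol genes was above that of all symbols. Among the fatty acid genes, TECR, the last enzyme of the elongation cycle, had means of 281 in summer and 503 in winter, and DGAT1, which completes triglyceride synthesis, had means of 75.2 in summer and 114 in winter. Of the 34 fatty acid genes with a mean of at least 10, these were the 2 higher in winter by that much and 0 were lower, where 10.1% of all symbols were higher and 12.2% lower.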
